A study of Mus musculus with 10 samples.

Results

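The genes described here encode the receptors through which noradrenaline, dopamine, serotonin and acetylcholine act. They were taken by name: every symbol of the mRNA tables beginning with Htr, Drd, Adra, Adrb or Chrm and a digit, or with Chrn and a, b, d, e or g, with the highest row kept where a symbol had several. The rule found 50 of 40904 symbols, which are 49 receptor genes and Chrna1os, an antisense transcript named after Chrna1. All 50 had a single row. The genes were measured in primary cortical neuron cultures from ICR mouse embryos at embryonic day 14, kept to day 11 in vitro and infected with an adeno-associated virus, AAV-Control in one culture and AAV-Gata1 in the other. Gata1 is a zinc finger transcription factor known from blood cell development. The labels name neither the promoter that drove it nor the insert of the control virus. Each condition had 1 mRNA library, so no difference below has a replicate check, none was tested, and no error can be given. The chromatin samples of the series were not analysed here.

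Monoamines and acetylcholine reach the cortex mainly by long axons from cells outside it, in the brainstem, midbrain and basal forebrain, so cortical cells express the receptors but hardly any of the enzymes that make these transmitters. Most of the receptors thread through the membrane as a bundle of helices and signal through G proteins: Gs raises cyclic AMP, Gi/o lowers it and opens potassium channels, and Gq activates phospholipase C. Nicotinic receptors and the Htr3 receptors are instead ion channels built of several subunits. FPKM, the unit of the deposited values, scales the fragments of a gene to its transcript length and to the size of the library, so levels of different genes can be set side by side.

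Among the receptor mRNAs, 1 adrenergic gene stood above all others. Of the 50 genes, 15 (30%) had a mean of at least 1 FPKM over both libraries and 35 did not, and 6 were listed at 0 in both. Over all symbols 33.6% reached that mean, so the share of 30% is near it and is no result about the receptors. Above 0 in either library were 44 of the 50 genes, against 21191 of all 40904 symbols. A value of 0 in both was thus less common among the 50 than over all symbols. Summed FPKM over the 49 receptor genes was 69.8 with the control virus and 70.4 with Gata1. Adra2a alone made up 29.2% and 29.3% of these sums, and its level was 2.75 times that of the next gene, Chrnb2, in the control and 2.80 times in the Gata1 library.

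**Figure D1:**
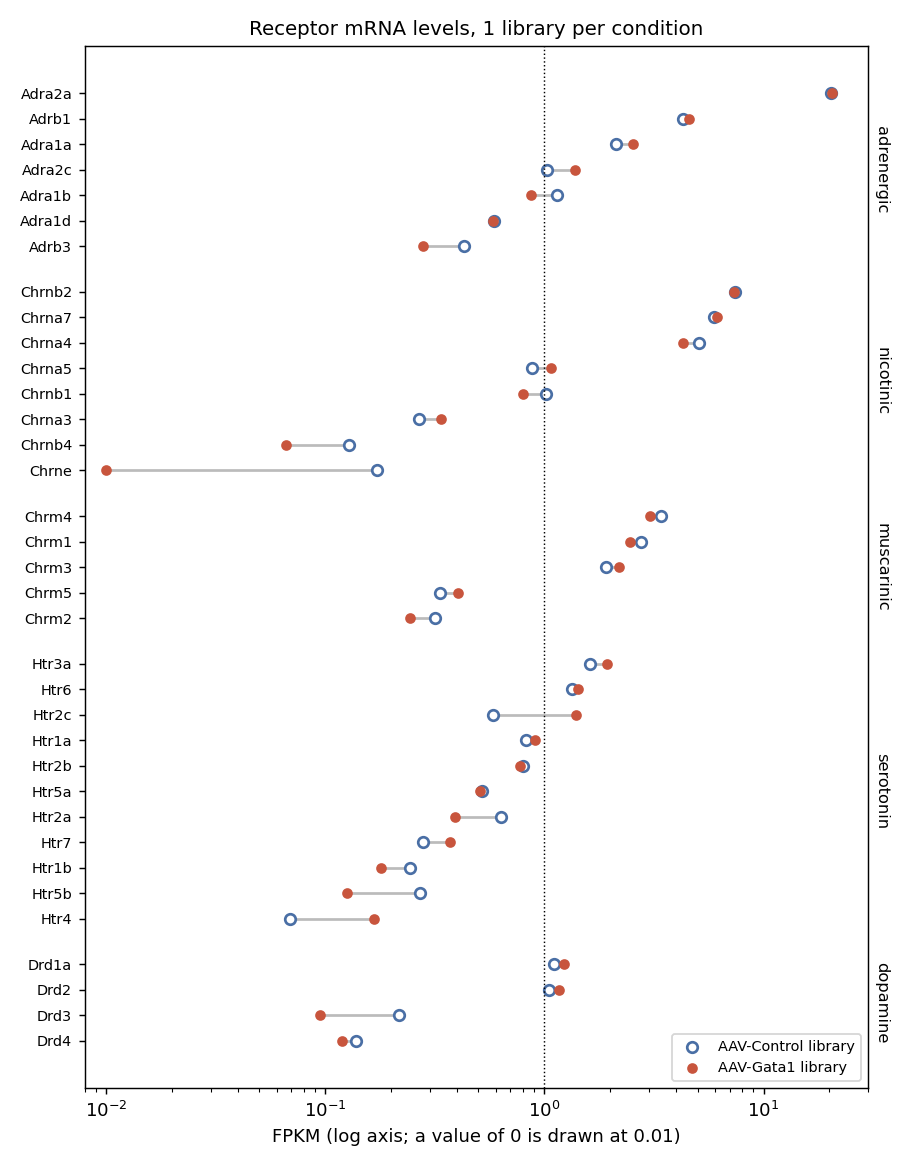
FPKM of the receptor genes reported here that reach 0.1 FPKM in either library, on a log axis, grouped by family; open circles are the AAV-Control and filled circles the AAV-Gata1 library (1 library each, no error), and the dotted line marks 1 FPKM. Adra2a lies furthest right at about 20 FPKM in both, and the circles of most genes above 1 FPKM nearly coincide, whereas Htr2c, Htr4, Htr5b, Drd3 and Chrne lie further apart at low levels.

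Of the 15 receptor genes that reached a mean of 1 FPKM, 0 were 1.2-fold higher and 0 were 1.2-fold lower in the Gata1 library on the scale used for differences, log2((Gata1 + 1)/(control + 1)), which understates differences of low genes. Over all 13740 symbols compared on that scale, 3.29% were 1.2-fold higher or more and 3.98% were 1.2-fold lower or more, and 0.233% and 0.284% were past 2-fold in the same directions. A count of 0 among 15 is near these shares and is no result about the receptors. By any amount, 10 of the 15 were higher and 5 lower (11 and 4 with the ratios centred on the median of all symbols), against 45.3% higher and 54.7% lower over all symbols. Their median log2 ratio was 0.052 and that of all symbols −0.013. The log2 ratios of the 15 ran from −0.20 to 0.23, and the FPKM ratios from 0.763 to 1.34. As a description of the spread at each level, the 5th and 95th percentiles of the log2 ratio over all symbols were −0.40 and 0.40 for means of 1 to 2 FPKM, −0.33 and 0.28 for 2 to 5, −0.23 and 0.20 for 5 to 20, and −0.16 and 0.14 from 20 FPKM. Of the 15 receptor genes, 0 lay outside these limits for their level. By definition 5% of symbols lie beyond each limit, so a count of 0 among 15 is no result about the receptors.

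**Figure D2:**
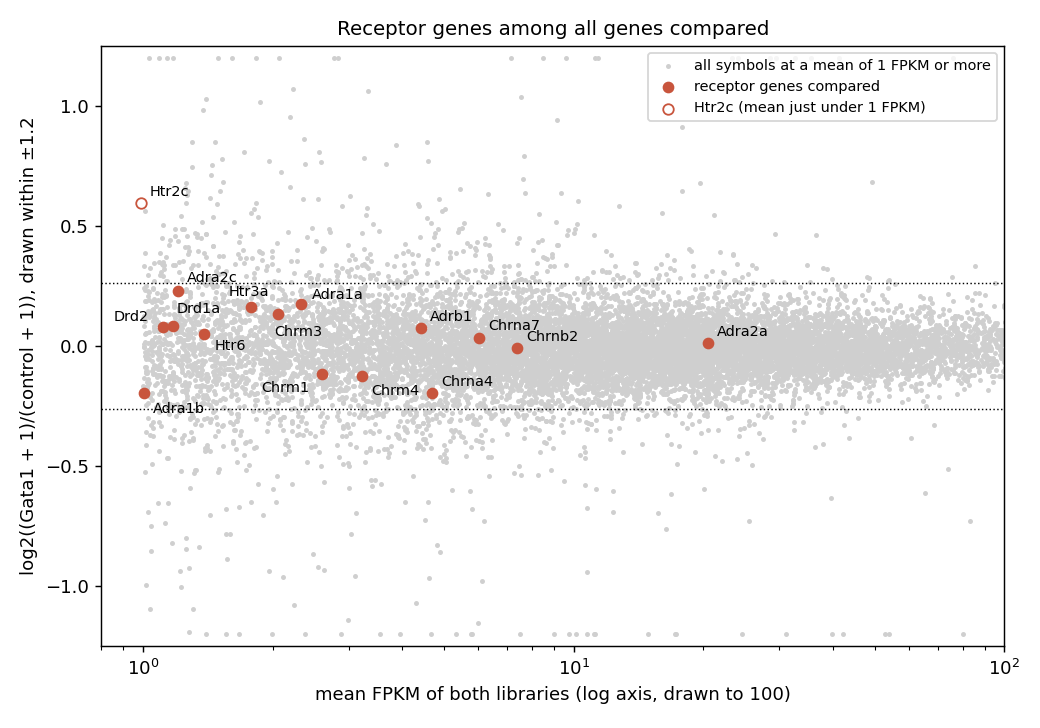
The log2 ratio of the Gata1 to the control library (pseudocount of 1 FPKM, points past ±1.2 drawn at the edge) against mean FPKM on a log axis, with grey points for all symbols at 1 FPKM or more (drawn to a mean of 100), filled points for the 15 receptor genes compared and an open point for Htr2c. Dotted lines mark 1.2-fold: all 15 filled points lie between them, and Htr2c lies above at 0.59.

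The adrenergic receptors held the largest summed level, 30.2 FPKM with the control virus and 31.0 FPKM with Gata1 over 9 genes. Adra2a, a Gi/o-coupled receptor for noradrenaline that also restrains transmitter release from nerve endings, stood at 20.4 FPKM with the control virus and 20.6 FPKM with Gata1 (log2 ratio 0.014). More abundant symbols numbered 4915 in the first library and 4804 in the second. It carried 67.5% and 66.5% of the adrenergic sum, so the level of this family was mostly its own. Adra2c, the related Gi/o-coupled receptor, stood at 1.03 and 1.38 FPKM. Its FPKM ratio of 1.34 was the highest of the 15 genes compared, and its log2 ratio was 0.23; 13.0% of symbols at 1 to 2 FPKM had a ratio as high or higher. Adra2b, the third of this subtype, was listed at 0.0228 FPKM with the control virus and at 0 with Gata1.

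Because Adra2a leads the whole set, the 250 bases before its annotated start are shown, from the RefSeq promoter table of build GRCm38.p6 (chr19:54045009-54045258, plus strand), to stand beside those printed further on for genes with a GATA motif. The motifs searched were AGATAA, the same letters with a final G (AGATAG), the form with a T in front (TGATAA) and the form with both changes (TGATAG), on both strands, in windows from 250 bases before to 50 after each start, and none is found in the Adra2a window.
Adra2a: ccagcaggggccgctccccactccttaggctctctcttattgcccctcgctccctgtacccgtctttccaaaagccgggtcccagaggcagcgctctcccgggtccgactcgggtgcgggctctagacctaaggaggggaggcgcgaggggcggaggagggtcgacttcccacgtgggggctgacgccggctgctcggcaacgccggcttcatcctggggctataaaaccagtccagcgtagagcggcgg

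Adrb1, the Gs-coupled beta receptor that is also the main one of the heart, stood at 4.28 and 4.55 FPKM (log2 ratio 0.074). Adrb3, best known from fat cells, was listed at 0.431 and 0.280 FPKM. Adrb1 was thus above Adrb3 in both libraries.

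The Gq-coupled alpha receptors differed in direction. Adra1a stood at 2.13 FPKM with the control virus and 2.53 FPKM with Gata1 (log2 ratio 0.18), and Adra1b at 1.14 and 0.867 FPKM (log2 ratio −0.19). The FPKM ratio of Adra1b, 0.763, was the lowest of the 15; 16.7% of symbols at 1 to 2 FPKM had a ratio as low or lower. Adra1d stood at 0.587 and 0.581 FPKM. Adra1b was the gene closest to the minimum for comparison, with a mean of 1.002 FPKM.

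The nicotinic genes, 16 in all, summed to 20.95 FPKM with the control virus and 20.1 FPKM with Gata1, and 3 subunits made up most of it. Chrnb2, the beta subunit of the main high-affinity nicotinic receptor of the brain, stood at 7.40 and 7.36 FPKM (log2 ratio −0.0070, which turns to the higher side when centred). Chrna4, the alpha subunit with which it assembles, stood at 5.07 and 4.30 FPKM (log2 ratio −0.20). Chrna7, whose product forms a calcium-permeable channel of a single kind of subunit, stood at 5.93 and 6.11 FPKM (log2 ratio 0.036). They held 35.3%, 24.2% and 28.3% of the nicotinic sum with the control virus and 36.6%, 21.4% and 30.4% with Gata1. The log2 ratio of Chrna4 was the lowest of the 15, and the level of Chrnb2 was 1.46 times that of Chrna4 with the control virus and 1.71 times with Gata1. Chrnb2 overlaps Adar, which stood at 23.3 FPKM in both libraries.

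Chrna5, an accessory subunit that joins other subunits, stood at 0.881 and 1.07 FPKM, and its neighbours Chrna3 and Chrnb4, which form the receptor of autonomic ganglia, at 0.269 and 0.339 FPKM and at 0.129 and 0.0666 FPKM. These 3 genes lie within 100 kb of each other. Chrna5 overlaps Chrna3 on the opposite strand, and the sources used here do not give whether fragments were assigned by strand. Both genes of the overlapping pair were higher with Gata1, at FPKM ratios of 1.22 and 1.26, while Chrnb4 was lower. The part of the overlap in these values was not tested. The muscle-type subunits were low or at 0: Chrnb1 stood at 1.02 and 0.801 FPKM, Chrne at 0.173 FPKM and 0, Chrna1 at 0.0498 and 0.0323 FPKM, and Chrnd and Chrng were listed at 0 in both libraries. The antisense transcript Chrna1os, at 0.617 and 0.391 FPKM, was above Chrna1 in both. Chrna6 and Chrnb3, neighbours that are known from midbrain dopamine cells, and Chrna9, known from hair cells of the ear, were also listed at 0 in both, and Chrna2 and Chrna10 were under 0.02 FPKM. In all, 8 of the 16 nicotinic genes were under 0.1 FPKM in both libraries. The share of all symbols under that level was not counted, but only 21191 of 40904 symbols were above 0 in either library. The count of 8 is thus no result about this family.

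**Figure D3:**
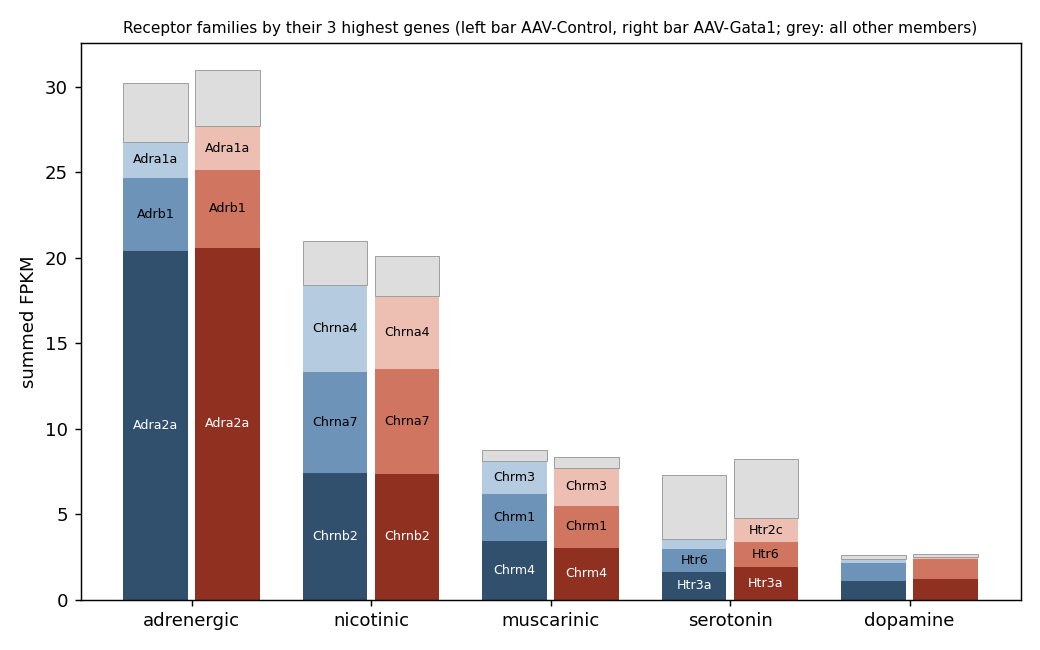
Summed FPKM of the 5 receptor families, with bars from 0; in each pair the left bar is the AAV-Control and the right bar the AAV-Gata1 library, and the coloured segments are the 3 genes of highest mean, the darkest being the highest, with all other members in grey. The adrenergic bars are mostly Adra2a, the nicotinic bars are shared by Chrnb2, Chrna7 and Chrna4, and the serotonin bar is taller in the Gata1 library (8.24 against 7.30 FPKM), mostly through Htr2c (without it 6.85 against 6.72 FPKM).

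The muscarinic receptors summed to 8.74 and 8.35 FPKM over 5 genes. Chrm4, which couples to Gi/o, stood at 3.41 FPKM with the control virus and 3.04 FPKM with Gata1 (log2 ratio −0.13). Chrm1, a Gq-coupled receptor of cortical pyramidal cells, stood at 2.75 and 2.46 FPKM (log2 ratio −0.12). Chrm3, also Gq-coupled, went the other way, at 1.92 and 2.20 FPKM (log2 ratio 0.13). The share of Chrm3 in the muscarinic sum was 22.0% and 26.3%, and that of Chrm4 39.0% and 36.4%. Chrm5 and Chrm2 were low, at 0.334 and 0.405 FPKM and at 0.319 and 0.244 FPKM. Chrm5 overlaps Aven, listed at 5.06 and 5.88 FPKM, an FPKM ratio of 1.16 beside 1.21 for Chrm5. Chrm2 overlaps 9330158H04Rik, listed at 0.958 and 0.288 FPKM and also lower with Gata1. The part of these overlaps in the values was not tested. Chrm4 overlaps Mdk, a growth factor gene listed at 214 and 210 FPKM, and the sources used here do not give whether fragments were assigned by strand.

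The serotonin receptors, 14 genes of both kinds, summed to 7.30 FPKM with the control virus and 8.24 FPKM with Gata1, a ratio of 1.13. Most of that difference lay in Htr2c, a gene below the minimum for comparison: without it, a step chosen after the values were seen, the other 13 genes summed to 6.72 and 6.85 FPKM, a ratio of 1.02. Htr3a, the obligate subunit of the serotonin-gated channel and in cortex a gene of interneurons, was the highest at 1.62 and 1.93 FPKM (log2 ratio 0.16), while Htr3b, its partner subunit and neighbour, was listed at 0 in both. Htr6, a Gs-coupled receptor, stood at 1.34 and 1.43 FPKM (log2 ratio 0.052). These were the only serotonin receptor genes with a mean of 1 FPKM or more.

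Htr2c, a Gq-coupled receptor whose transcript is edited by ADAR enzymes, had the widest difference among the receptor genes at 0.5 FPKM or more. It stood at 0.583 FPKM with the control virus and 1.39 FPKM with Gata1, an FPKM ratio of 2.39 and a log2 ratio of 0.59 with the pseudocount of 1. Its mean, 0.987 FPKM, lies just under the minimum of 1 FPKM, so it is not among the 15 genes compared. Of the 1189 symbols with a mean of 0.5 to 1 FPKM, 2.19% had a ratio as high or higher, and 10.4% were at least 1.2-fold higher. Of the 9 members at that level, Htr2c was the 1 outside the 5th and 95th percentiles (−0.47 and 0.40). By definition 5% of symbols lie beyond each of these limits, so 1 of 9 is near that share and is no result about the receptors. Htr2c made up 7.98% of the serotonin receptor sum with the control virus and 16.9% with Gata1. Htr2c is also a gene of the choroid plexus, so 6 markers of that tissue, chosen after the values were seen, were read: they summed to 32.1 and 27.3 FPKM, with Ttr, the thyroid hormone carrier, at 20.4 and 14.2 FPKM. Of these markers 4 could be compared, 2 higher and 2 lower by any amount. Past 1.2-fold, Folr1 lay on the higher side, at 7.15 and 8.96 FPKM. Ttr and Otx2 lay on the lower side, Otx2 at 1.57 and 1.06 FPKM. Among all symbols compared, 3.29% and 3.98% were past 1.2-fold on those sides. For means of 5 to 20 FPKM, the level of Folr1 and Ttr, these shares were 2.67% and 3.37%. For 1 to 2 FPKM, that of Otx2, they were 10.6% and 10.5%. The counts of 1 and 2 among 4 exceed these shares, but markers chosen with their values known give no result about the tissue. The markers Kl and Clic6 were under 0.1 FPKM in both libraries, and their part in the Htr2c value was not tested. The 250 bases before the annotated start of Htr2c (chrX:146962263-146962512, plus strand, GRCm38.p6, from RefSeq) are shown because this gene had that difference, and no GATA motif is found in its window.
Htr2c: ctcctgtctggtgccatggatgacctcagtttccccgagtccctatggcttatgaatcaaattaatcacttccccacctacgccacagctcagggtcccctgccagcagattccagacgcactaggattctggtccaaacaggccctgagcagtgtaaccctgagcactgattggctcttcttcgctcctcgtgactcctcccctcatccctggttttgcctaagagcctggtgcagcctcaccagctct

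Htr2a, the related Gq-coupled receptor at which psychedelic drugs act, stood at 0.635 and 0.391 FPKM, so the level of Htr2a was 1.09 times that of Htr2c with the control virus and 0.281 times with Gata1. Htr2b stood at 0.800 and 0.773 FPKM and overlaps the proteasome gene Psmd1 (76.4 and 75.0 FPKM). Htr1a, the Gi/o-coupled receptor that slows the firing of neurons, stood at 0.821 and 0.906 FPKM, and Htr5a at 0.522 and 0.509 FPKM. Below these came Htr7 at 0.279 and 0.371 FPKM, Htr1b at 0.243 and 0.179 FPKM, Htr5b at 0.271 and 0.126 FPKM and Htr4 at 0.0689 and 0.168 FPKM. Htr1d and Htr1f were under 0.1 FPKM in both libraries.

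The dopamine receptors were the lowest family, at 2.60 and 2.67 FPKM over 5 genes. Drd1a, the file's name for the Gs-coupled receptor Drd1, stood at 1.11 FPKM with the control virus and 1.23 FPKM with Gata1 (log2 ratio 0.083). Drd2, the Gi/o-coupled receptor at which antipsychotic drugs act, stood at 1.05 and 1.17 FPKM (log2 ratio 0.081). The level of Drd1a was 1.05 times that of Drd2 in both libraries, and the FPKM ratio between libraries was 1.11 for both genes. Drd3 stood at 0.218 and 0.0947 FPKM, Drd4 at 0.138 and 0.120 FPKM, and Drd5 at 0.0828 and 0.0562 FPKM.

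Grouped by the signal they give, the receptors gave similar sums in both libraries. Gi/o-coupled receptors summed to 28.6 FPKM with the control virus and 28.4 FPKM with Gata1 over 14 genes, Gq-coupled receptors to 10.9 and 11.6 FPKM over 9, Gs-coupled receptors to 7.79 and 8.29 FPKM over 8, and channel subunits to 22.6 and 22.0 FPKM over 18. Adra2a alone made up 71.4% and 72.5% of the Gi/o sums, and Adrb1 54.9% of the Gs sum in both libraries. These 2 sums thus mostly reflect single genes. Without Htr2c, a step chosen after the values were seen, the Gq-coupled sums were 10.3 and 10.2 FPKM. Those of all receptor genes were then 69.2 and 68.97 FPKM. The ratios of these sums, 0.992 and 0.997, are close to 1, and no direction is read from them. Among genes at a mean of 1 FPKM or more, 3 of 3 Gs-coupled receptors were higher by any amount, as were 3 of 4 Gi/o-coupled receptors, 2 of 4 Gq-coupled receptors and 2 of 4 channel subunits (3 of 4 when centred, through Chrnb2). Over all symbols compared 45.3% were higher by any amount, and counts of 3 or 4 genes are no result about a class. In FPKM without a pseudocount, 0 of the 15 were 2-fold apart. Of the 27 genes below 1 FPKM that were above 0 in both libraries, 2 were past 2-fold on the higher side (Htr2c and Htr4) and 3 on the lower side (Htr5b, Drd3 and Htr1d), named after their values were seen. Over all 5177 symbols of that kind, 13.3% were past 2-fold on the higher side and 12.7% on the lower side, so these counts are no result about the receptors. The latter 3 and Htr4 lie under 0.3 FPKM in both libraries, and the fragments behind such values are not known.

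Windows of 37 receptor genes were found in the RefSeq promoter table, 42 in all since some genes have several starts. A GATA motif was present in 9 of them (21.4%), against 29.8% of all 32851 windows in the table. Among the 12 compared genes with a window, those with a motif were Drd2 and, in 1 of its windows, Adra1b, whose values were not alike in direction. Both are printed from 250 bases before the start, in RefSeq build GRCm38.p6, with the motif in capitals: Drd2 from chr9:49340153-49340402 on the plus strand and Adra1b from chr11:43901238-43901487 on the minus strand.
Drd2: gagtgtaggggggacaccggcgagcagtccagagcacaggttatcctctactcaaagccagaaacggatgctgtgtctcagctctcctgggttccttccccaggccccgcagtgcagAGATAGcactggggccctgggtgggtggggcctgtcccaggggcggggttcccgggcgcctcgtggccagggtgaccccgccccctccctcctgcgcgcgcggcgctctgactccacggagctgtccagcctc
Adra1b: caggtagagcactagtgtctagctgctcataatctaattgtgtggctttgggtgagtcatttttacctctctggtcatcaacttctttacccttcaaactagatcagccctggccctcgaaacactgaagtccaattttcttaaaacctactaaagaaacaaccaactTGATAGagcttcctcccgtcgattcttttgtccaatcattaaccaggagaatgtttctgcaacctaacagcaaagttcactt
A match of 6 letters is a description of the sequence, not a binding site. The motif begins 133 bases before the start in Drd2 and 82 bases before it in Adra1b. Windows of compared genes held more CpG than those of genes below 1 FPKM, at a median of 23 CpG dinucleotides in 15 windows against 7 in 27, with 7 over all windows. The exceptions ran both ways: Adra2c, at 1.03 and 1.38 FPKM, had 7, while Htr7 had 46 and Adra2b, at or near 0, had 29. The 15 windows belong to 12 genes, and windows of 1 gene could differ, with 3 and 28 CpG for Adra1b. All windows of the table were not split at 1 FPKM, so the difference in CpG is no result about the receptors.

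The signalling partners of the receptors were more abundant than the receptors, the G protein subunit genes summing to 2278 and 2205 FPKM. Of 18 compared G protein subunit genes 14 were lower by any amount, with a median log2 ratio of −0.053, and 1 was 1.2-fold lower and 0 higher. Over all symbols compared, 54.7% were lower by any amount, 3.98% were 1.2-fold lower or more and the median was −0.013. The gene past 1.2-fold was Gng13, a gamma subunit, at 2.31 and 1.70 FPKM. For means of 2 to 5 FPKM, its level, 8.48% of symbols were 1.2-fold lower or more. A count of 1 among 18 is thus no result about the list. Gng13 overlaps Chtf18, and the part of the overlap in its values was not tested. Gng4 stood at 24.4 and 20.4 FPKM and Gng3 at 35.0 and 31.8 FPKM. Gnas, the Gs alpha subunit, stood at 475 and 436 FPKM. Of 29 second messenger genes 22 were lower by any amount, with a median of −0.063 and 0 past 1.2-fold either way. Among the widest were Plcb4, a phospholipase C driven by Gq, at 8.63 and 7.25 FPKM, the phosphodiesterase gene Pde1a at 9.93 and 8.65 FPKM, and the adenylyl cyclase gene Adcy2 at 12.1 and 10.8 FPKM.

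Among 17 compared genes of receptor kinases, arrestins and RGS proteins, which shut off receptor signals, 10 were lower and 7 higher by any amount (median −0.026), and 1 was past 1.2-fold each way. Grk4, a receptor kinase, stood at 2.49 and 4.09 FPKM (log2 ratio 0.55). Rgs16, which speeds the switching off of G proteins, stood at 4.81 and 3.28 FPKM (log2 ratio −0.44). Over all symbols compared, 54.7% were lower and 45.3% higher by any amount, and 3.98% and 3.29% were past 1.2-fold on those sides. For means of 2 to 5 FPKM, the level of Grk4 and Rgs16, the latter shares were 8.48% and 6.14%. Counts of 1 among 17 are near these shares and are no result about this list. Grk5 stood at 2.67 and 3.26 FPKM and Rgs9 at 5.45 and 4.77 FPKM. Arrb1 and Arrb2, the arrestins, are among the genes inside 1.2-fold.

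Of 10 compared genes in the list of nicotinic receptor assembly factors and toxin-like modulators, 6 were lower and 4 higher by any amount, with a median of −0.043 and 0 past 1.2-fold. These counts are near the shares over all symbols compared, 54.7% lower and 45.3% higher by any amount. The widest were Lypd6b, of the same protein fold as snake toxins, at 3.87 and 3.16 FPKM, Lypd1 at 9.66 and 8.61 FPKM, Ly6e at 29.5 and 26.6 FPKM and Tmem35, which promotes assembly of Chrna7 channels, at 30.6 and 27.9 FPKM. The chaperone gene Ric3 stood at 14.8 and 15.1 FPKM and Ly6h, an abundant member, at 140 and 142 FPKM.

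Of the genes that make the transmitters, most were under 1 FPKM and Gch1 lay above it. Genes that break them down lay both above and below 1 FPKM. Markers of midbrain, raphe and basal forebrain projection neurons, 10 genes, summed to 0.696 FPKM with the control virus and 0.841 FPKM with Gata1, and Slc6a2, Chat and Slc18a3 were listed at 0 in both. Th, which makes the dopamine precursor, stood at 0.295 and 0.522 FPKM. Of 17 genes of monoamine synthesis, transport and breakdown 5 could be compared, 3 higher and 2 lower by any amount (median 0.11) and 0 past 1.2-fold: Slc29a4, a monoamine carrier, stood at 27.7 and 24.2 FPKM, Maob at 3.80 and 3.37 FPKM, Gch1 at 1.08 and 1.28 FPKM, and Maoa, which oxidises monoamines, at 16.1 and 17.4 FPKM. Of 9 acetylcholine genes 3 could be compared, 1 higher and 2 lower (median −0.042) and 0 past 1.2-fold: Slc44a1, a choline carrier, stood at 41.1 and 38.7 FPKM, Acly at 38.3 and 37.1 FPKM and Ache, which splits acetylcholine, at 3.84 and 3.95 FPKM. With 45.3% higher and 54.7% lower by any amount over all symbols compared, such counts of 5 and 3 genes are no result about these lists.

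**Figure D4:**
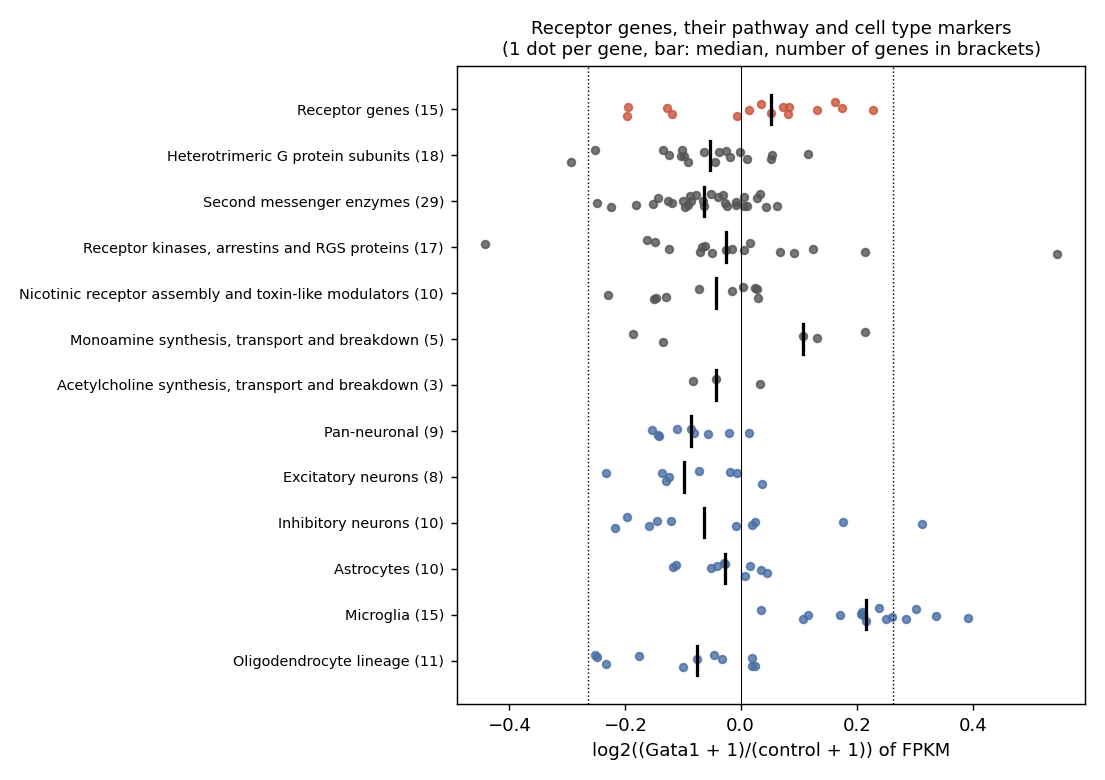
The log2 ratio of the Gata1 to the control library for each gene at a mean of 1 FPKM or more (1 dot per gene), with the list's median as a bar and 1.2-fold as dotted lines; the number of genes is in brackets, and receptors, pathway lists and marker lists differ in colour. The 15 receptor genes spread from −0.20 to 0.23 around a median of 0.052, and all 15 microglia markers lie on the higher side, at a median of 0.22.

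Gata1 itself, the check of the labels, read 0 with the control virus and 2.07 FPKM with the Gata1 virus. Of the compared markers in each list, set against 54.7% lower and 45.3% higher by any amount over all symbols (past 1.2-fold 3.98% lower and 3.29% higher), pan-neuronal markers, led by Stmn2 and Map2, were lower by any amount in 8 of 9 cases (summed level 789 and 754 FPKM), excitatory markers, led by Neurod6 and Slc17a7, in 7 of 8 (168 and 164), inhibitory markers, led by Sst and Dlx1, in 6 of 10 (204 and 197), astrocyte markers, led by Gfap and Slc1a3, in 6 of 10 (2515 and 2507) and oligodendrocyte lineage markers, led by Olig1 and Cnp, in 8 of 11 (318 and 303). Microglia markers, led by Tyrobp, were higher in 15 of 15 (670 and 791 FPKM), with a median log2 ratio of 0.22. At least 1.2-fold higher were 4 of these 15: Fcrls at 18.8 and 24.99 FPKM, Ctss at 22.8 and 29.1 FPKM, Cx3cr1 at 14.6 and 18.2 FPKM and Trem2 at 43.7 and 53.4 FPKM. Elsewhere 1 inhibitory marker, Dlx5, was 1.2-fold higher (7.61 and 9.69 FPKM) and 1 pericyte and smooth muscle marker, Acta2, 1.2-fold lower (76.4 and 60.7 FPKM). Genes in these last sentences were named after their values were seen. Of the rest, pericyte and fibroblast markers, led by Acta2 and Tagln and with Kcnj8 at 0, summed to 141 and 120 FPKM, endothelial markers, led by Egfl7 and Slco1a4, to 11.3 and 11.4 FPKM, and skeletal muscle markers, led by Tnnt3, with the muscle regulator genes Myod1 and Myog under 0.1 FPKM, to 2.77 and 3.38 FPKM. Neuronal markers were thus present in both libraries, as were those of glial and myeloid cells. The part of these cell types in any receptor value was not tested, and in such bulk libraries fewer cells of a type and less RNA per cell cannot be told apart.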

How the data were processed

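The values deposited by the authors are FPKM, per the file headers, for 1 mRNA library per condition. The sample names in those headers match no label, so each file was given the sample under which GEO lists it. Libraries were made with a stranded TruSeq mRNA kit, per the labels' protocols. The submitters' processing notes name, with no role, the builds mm9 and mm10 and tools that include Cufflinks 2.1.1, Cuffdiff 2.1.1 and TopHat2 2.1.1. Of 40993 rows, 6 without a symbol (0.0122% and 0.0113% of the summed FPKM) were left out. Both libraries sum to 476198 and 476656 FPKM over named symbols. Of 1274 low genes (over 0 but less than 0.1 FPKM in each library), at most 37 shared a log2 ratio within 0.02, so whole fragments were not recovered and depth is unknown.

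Differences are log2((Gata1 + 1)/(control + 1)) for symbols with a mean of at least 1 FPKM, with 1.2-fold and 2-fold as rules of size and no test. The counting was tested on simulated data, with changes placed only in genes at 5 FPKM or more and noise of the same size at every level. That test therefore does not cover the lower levels of most receptor genes. Named were all members at that mean, members reaching 0.1 FPKM in either library, the 4 widest genes of each pathway list and the 2 highest markers of each marker list; a few genes that the rule takes are not reported here; others are said to be chosen after their values were seen or stand beside a member as background. Gene members and lists were chosen with earlier results of these data known. RefSeq (GRCm38.p6) gave overlaps, neighbours within 100 kb and promoter windows. Python 3.11.15, pandas 2.3.3 and numpy 2.4.6 were used. Alternatives were a pseudocount of 0.1 FPKM, no minimum, a minimum of 5 FPKM, summed rows and centring.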

Additional observations from a re-analysis of the deposited data

How the results depend on the processing

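Counts of receptor genes past 1.2-fold depend on the pseudocount at low levels. With a pseudocount of 0.1 FPKM, 1 of the 15 genes was at least 1.2-fold higher (Adra2c, log2 ratio 0.39) and 1 at least 1.2-fold lower (Adra1b, −0.36), against 4.94% and 5.9% of all symbols. With no minimum, 1 of 44 genes above 0 in either library was 1.2-fold higher (Htr2c) and 0 lower, and 19 were higher and 25 lower by any amount, with a median log2 ratio of −0.0095, against 4.01%, 4.87%, 46.2% and 53.6% of all 21191 symbols above 0 and their median of −0.011. With a minimum mean of 5 FPKM only 3 genes were left, 2 higher and 1 lower by any amount. Summing the rows of a symbol changed none of the receptor values, and centring, a shift of −0.013, kept both counts past 1.2-fold at 0. Among 37 named genes, 18 log2 ratios moved by more than 0.11, the scaled median deviation over all symbols, with the pseudocount of 0.1 FPKM, among them Htr2c (1.13). The number of libraries and the unknown depth limit all values, those under 1 FPKM most. No paired analysis was possible because each condition has 1 library.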
